A study of Mus musculus with 4 samples.

Results

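Collagen genes were described across the cell classes and neuron groups of the aged mouse hypothalamus. The members were all genes whose symbol is Col followed by a number, the letter a and a number, and that reached 10 or more unique molecular identifiers (UMIs, each counting 1 captured RNA molecule) over the control-labelled matrices. There were 39 such genes among 44 collagen symbols and 32285 listed genes, and 17301 genes of any kind reached the same total. The 5 symbols below the minimum were Col6a6 with 9 UMIs, Col8a2 with 6, and Col3a1, Col10a1 and Col17a1 with 3 each. The member nearest the minimum from above was Col1a1 with 16 UMIs.

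The tissue was whole hypothalamus, frozen, from mice of about 18 months, and the nuclear RNA of its single nuclei was sequenced in droplet 3′ libraries. Of the 4 samples, 2 were labelled Control and 2 Transplanted, the latter meaning that the mice received grafts of hypothalamus stem cells of human pluripotent (hPSC) origin. Some titles join a pair of animal codes, and the sources used here give neither strain, sex nor the number of animals per library.

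Before any result, the matrices were compared with each other, because the labels and the data disagreed. The first control and first transplanted matrices shared 3997 of the control's 4008 barcodes, and the second pair shared 2144 of 2150, or 99.7% in each case. Member totals differed between the paired matrices by less than counting noise, with a mean squared difference of 0.205 and 0.349 times the binomial variance. The 4 matrices therefore held 2 distinct libraries, which shared 4 barcodes with each other. Control was not compared with transplanted. The 2 control-labelled matrices are called library A and library B below. With the library as a term, p-values measure how far class or group differences varied between these 2 libraries, a spread that may be technical.

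Collagens are proteins built from 3 chains wound into a triple helix. Fibril-forming collagens make the ropes of connective tissue, network-forming collagen IV makes the sheet of basement membranes, and fibril-associated collagens decorate the fibrils. A further family spans the plasma membrane with its helix outside the cell and can be shed from it. In brain, most collagen protein lies around vessels and in the meninges, while some transmembrane and fibril-associated collagens are made by neurons and act in axon targeting and synapse formation.

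Library A held 4008 nuclei with 8779880 UMIs and a median of 1813 per nucleus, and library B held 2150 nuclei with 4924563 UMIs and a median of 2049. Members took 0.103% of the UMIs of library A and 0.0956% of those of library B. A doublet caller marked 5 nuclei in A (0.125%), too few for the caller to have worked there, and 25 in B, and these were left out. Nuclei were clustered with every collagen gene left out. They gave 2979 and 1441 neurons, 303 and 200 astrocytes, 374 and 285 oligodendrocytes, 134 and 72 oligodendrocyte precursors, 109 and 44 tanycyte-like nuclei, and 55 and 47 microglia. All class names are "-like" names given from marker genes. Median depth ran from 623 UMIs in microglia to 2631 in neurons, so a gene at 0 in a small class is only below that class's limit of detection.

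Tanycytes are glia lining the third ventricle, next to ciliated ependymal cells, and their class was the least certain. Of 12 tanycyte markers 11 had a UMI in it, but Scn7a and Fndc3c1 supplied most of them, and all 9 ependymal markers were also detected. The summed tanycyte list stood at 2573 CPM (the gene's UMIs per 1000000 UMIs of the class) in A and 3081 CPM in B, and the summed ependymal list at 1021 and 979 CPM. The name rests on 1 of 3 sub-groups, led by Fndc3c1 among other genes, with 343 UMIs of the tanycyte list and 15 of the ependymal list. Scn7a supplied 218 of those 343 UMIs and Fndc3c1 94. On few UMIs each, Lhx2, Gpr50, Vim and Crym were at lower CPM there than in both other sub-groups, and Dio2 was higher. In the other sub-groups, with 105 of the 153 nuclei, the ependymal list had more UMIs than the tanycyte list (85 against 50, and 56 against 30), so "tanycyte-like" is a label for the class and not for each nucleus. Levels are therefore also given by sub-group.

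The 39 members had 13730 UMIs in all, of which Col25a1 had 5508, or 40.1%. Only 11 members had 200 UMIs or more, and 14 had fewer than 50. Summed over members, collagen transcripts were densest in tanycyte-like nuclei, at 10404 CPM in A and 10754 CPM in B. The neurons stood at 957 and 893 CPM and oligodendrocyte precursors at 1080 and 723 CPM. Astrocytes had 518 and 723 CPM, microglia 341 and 491 CPM, and oligodendrocytes 122 and 218 CPM. Without Col25a1 the tanycyte-like sum was 4058 and 4816 CPM. By mean level, 16 members were highest in tanycyte-like nuclei, 10 in neurons, 7 in oligodendrocyte precursors, 3 in microglia, 2 in astrocytes and 1 in oligodendrocytes. Of the 16, 5 had fewer than 3 UMIs in tanycyte-like nuclei, and 11 were highest there in each library. Of the 7, 2 had fewer than 3 UMIs in oligodendrocyte precursors.

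**Figure D1:**
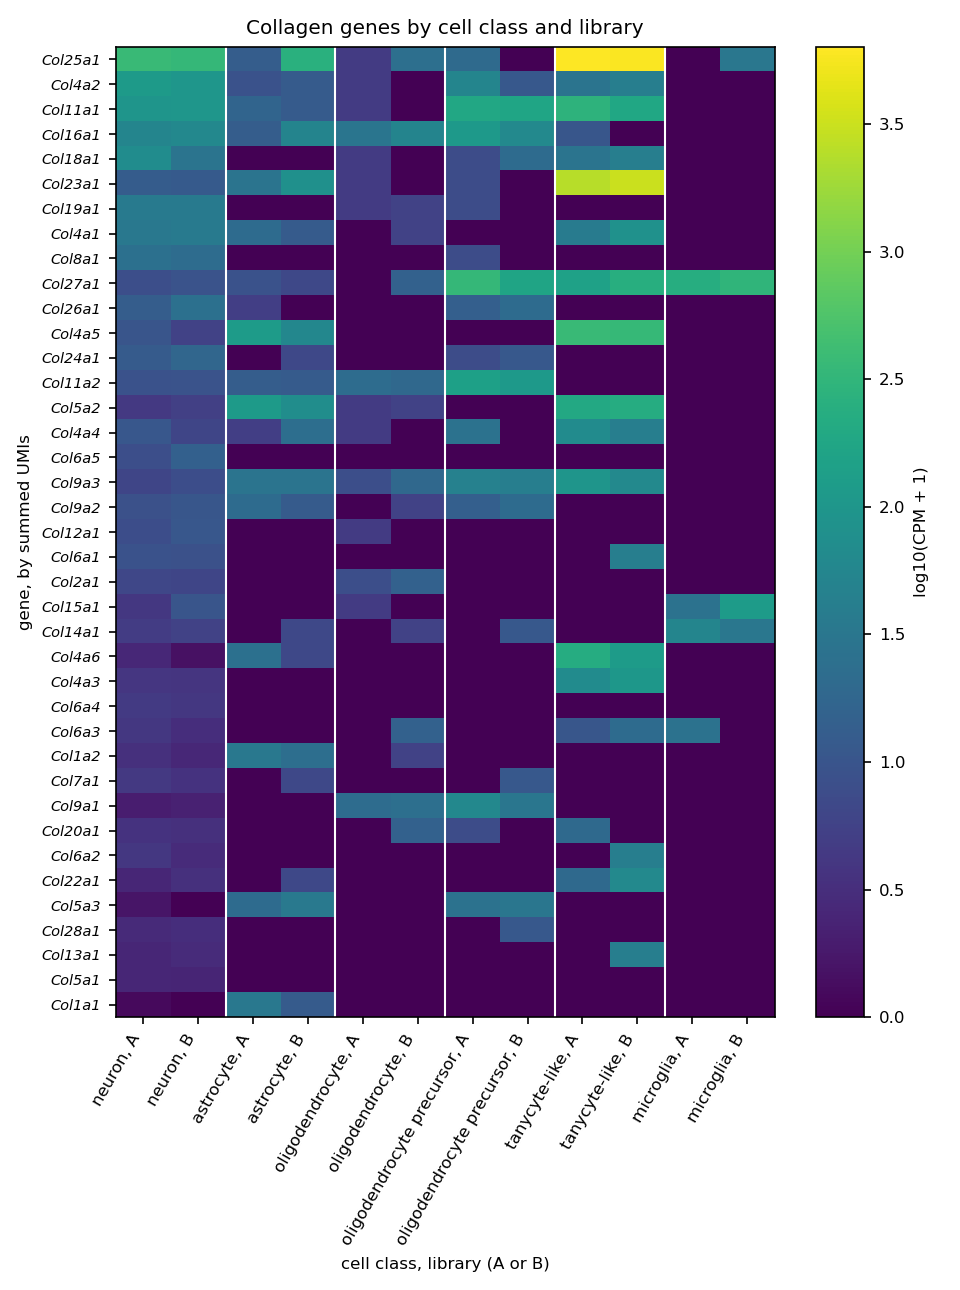
Heat map of the 39 collagen genes (rows, by summed UMIs) in 6 cell classes and 2 libraries (columns), with colour giving log10 of CPM plus 1. Col25a1 and Col23a1 stand highest in tanycyte-like nuclei in both libraries, and Col4a2 stands highest in neurons.

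Each class was compared with the average of the other 5 on the log scale (edgeR quasi-likelihood test, adjusted p under 0.05). The low-count filter kept 6296 genes, among them 12 members. In tanycyte-like nuclei 9 members were called higher and 0 lower, where 13.9% and 4.62% of all tested genes were called. In neurons 4 were higher and 1 lower (34.9% and 14% of all genes), and in oligodendrocyte precursors 5 were higher and 1 lower (19.9% and 3.22%). In astrocytes 4 were higher and 1 lower (21.3% and 6.21%). Microglia had 1 higher and 2 lower (12.5% and 16.9%), and oligodendrocytes 0 higher and 2 lower (21.2% and 10.7%). The member median against the other classes was 5.50 on the log2 scale in tanycyte-like nuclei, where that of all genes was 0.08. It was -2.75 in oligodendrocytes against 0.11, and -6.13 in microglia against -0.55. The oligodendrocyte median lies between Col23a1 at -2.71 (SE 2657) and Col4a3 at -2.78 (no SE), so it is no measured difference. In microglia 9 of the 12 members were not called. A member could pass the filter through the class in which it was high, so these counts describe the 12 and not all 39. Because classes at 0 enter the average of logs, 18 of 23 higher calls and 7 of 7 lower calls also held against the mean CPM of the other classes in both libraries.

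Among the transmembrane collagens, Col25a1 encodes the collagen whose shed part was found in amyloid plaques and which motor axons need to reach muscle. Its level was 6346 CPM in A and 5938 CPM in B in tanycyte-like nuclei, and 380 and 342 CPM in neurons. The 2 libraries lay close together, and the tanycyte-like level was 16.7 and 17.4 times the neuronal one. The class was called higher with an adjusted p that the software returned as 0. Neurons were called higher as well (adjusted p = 1.44e-27), a call against an average of logs, since the tanycyte-like level was above theirs. Oligodendrocytes had 3.58 and 23.2 CPM and were called lower (adjusted p = 0.00125), as were oligodendrocyte precursors with 3 and 0 UMIs (adjusted p = 0.00338) and microglia with 0 and 1 (adjusted p = 9.22e-04). The precursor call was lost with no library term (adjusted p = 0.0726) and with DESeq2 (adjusted p = 0.104), and the microglia call in the transplanted-labelled matrices (adjusted p = 0.0894) and with DESeq2 (adjusted p = 0.108).

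A Col25a1 UMI was found in 39.4% and 52.3% of tanycyte-like nuclei and in 30.7% and 31.3% of neurons. In oligodendrocytes, which serve here as the measure of free RNA, the shares were 0.267% and 1.75%, at median depths of 671 and 686 UMIs against 2256 and 2631 in neurons. After thinning each nucleus to 500 UMIs the shares were 38.5% and 47.7% in tanycyte-like nuclei and 13.2% and 11.8% in neurons.

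Astrocytes gave different Col25a1 levels in the libraries, 12 CPM in A and 254 CPM in B. A single nucleus of library B held 43 of its 45 astrocyte UMIs, together with 10 of the 14 Col23a1 UMIs. That nucleus had 4 of 12 tanycyte and 8 of 12 astrocyte markers, with 2841 UMIs. Without it, the astrocyte call for Col23a1 (adjusted p = 0.0103) was lost, at an adjusted p of 0.318. The astrocyte call for Col4a6 (adjusted p = 0.0422) was lost there too, at 0.0778, with a log2 difference of 4.18 against 4.41. That call was also lost in 4 other settings, at adjusted p between 0.0525 and 0.158.

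Col23a1, a transmembrane collagen of cell surfaces, was at 2440 CPM in A and 3122 CPM in B in tanycyte-like nuclei, and at 12 and 11.0 CPM in neurons. Astrocytes had 28.1 and 79.0 CPM, and microglia had 0 UMIs in both libraries. The tanycyte-like nuclei stood apart from every other named class, with a UMI in 72.5% and 79.5% of nuclei (adjusted p = 1.80e-282). After thinning these shares were 56.0% and 61.4%. Neurons had a UMI in 2.62% and 2.71% of nuclei before thinning. The third transmembrane member, Col13a1, known from the neuromuscular junction, had 20 UMIs in neurons and did not pass the filter. Without the filter it was not called in any class (adjusted p = 0.578 in neurons and 0.628 in tanycyte-like nuclei).

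The tanycyte-like nuclei split into 3 sub-groups, named here by a leading gene, and Col25a1 and Col23a1 were followed over them. In the Fndc3c1 sub-group (30 and 18 nuclei), Col25a1 was at 15350 CPM in A and 11248 CPM in B. The Prtg sub-group (39 and 17 nuclei) had 2011 and 931 CPM, and the Slc35f1 sub-group (40 and 9 nuclei) had 184 and 348 CPM. In the Fndc3c1 sub-group 29 of 30 and 17 of 18 nuclei carried Col25a1, with a median of 16.5 and 12 UMIs per nucleus and up to 60 and 36. Col23a1 was spread over all 3, at 2447 and 3131 CPM in the Fndc3c1, 2069 and 2916 CPM in the Prtg and 2823 and 3481 CPM in the Slc35f1 sub-group. These sub-group levels were not tested against each other.

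**Figure D2:**
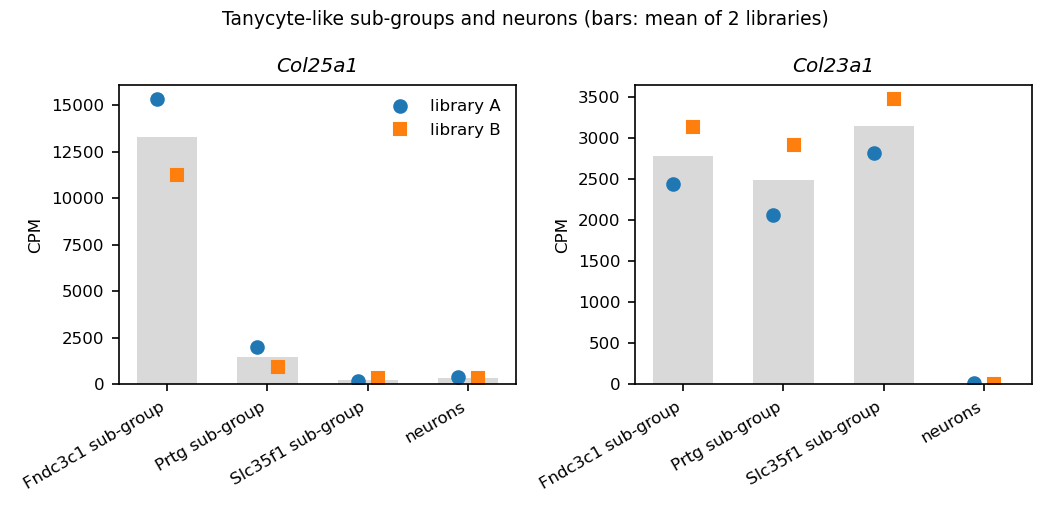
Col25a1 (left) and Col23a1 (right) in CPM in the 3 tanycyte-like sub-groups and in neurons, with a point per library and bars for the mean. Col25a1 is concentrated in the Fndc3c1 sub-group at 15350 and 11248 CPM, while Col23a1 is at 2069 CPM or more in all 3.

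Without the Fndc3c1 sub-group, 6 members were called higher in tanycyte-like nuclei, namely Col25a1, Col23a1, Col4a5, Col4a6, Col5a2 and Col11a1. The share of all genes was not counted for that fit, and Col9a3 was not tested in it. Col25a1 kept its call (adjusted p = 8.59e-42), and Col27a1 did not (adjusted p = 0.601). The remaining Col25a1 UMIs lay in few nuclei. In the Prtg sub-group 11 of 39 and 4 of 17 nuclei had a UMI, with a median of 0, and 3 and 1 nuclei had 10 or more. In the Slc35f1 sub-group 3 of 40 and 2 of 9 nuclei had a UMI.

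Among the fibrillar collagens, Col11a1, a chain of the thin fibrils of cartilage, was at 284 CPM in A and 184 CPM in B in tanycyte-like nuclei (adjusted p = 6.47e-13). Oligodendrocyte precursors had 190 and 173 CPM (adjusted p = 2.47e-13) and neurons 96.1 and 97.7 CPM (adjusted p = 1.41e-10). In neurons the Col11a1 call did not hold against the mean CPM of the other classes in library A. Microglia had 0 UMIs and were called lower (adjusted p = 0.0293), where 3 UMIs would have been 78.7 and 92.1 CPM. That call was lost in the transplanted-labelled matrices (adjusted p = 0.0612), with no filter (adjusted p = 0.0716) and with DESeq2 (adjusted p = 0.0736).

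Col11a2, the partner chain of Col11a1, differed from it. It was highest in oligodendrocyte precursors, at 144 and 112 CPM (adjusted p = 2.43e-13), with 21.5 and 18.6 CPM in oligodendrocytes and 0 UMIs in tanycyte-like nuclei. Col27a1, a fibrillar collagen of cartilage, reached 341 and 163 CPM in oligodendrocyte precursors (adjusted p = 3.92e-22). It was at 236 and 307 CPM in microglia (adjusted p = 8.57e-06, resting on 9 and 10 UMIs) and at 151 and 245 CPM in tanycyte-like nuclei (adjusted p = 1.28e-06). Neurons had 7.07 and 8.40 CPM and were called lower (adjusted p = 9.85e-08). Astrocytes (adjusted p = 0.000770) and oligodendrocytes (adjusted p = 1.79e-04) were called lower as well. With nuclei of 1000 or more UMIs the neuronal log2 difference turned to 0.82 (adjusted p = 0.823), and the 2 other lower calls were lost (adjusted p = 1). The log2 differences of those 2 were -7.03 in astrocytes and -7.02 in oligodendrocytes. That setting had no microglia class, so the average of the other classes was not the same as in the main fit.

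Col5a2, which regulates fibril width, was shared by tanycyte-like nuclei and astrocytes. It was at 199 and 224 CPM in the former (adjusted p = 5.81e-15) and at 116 and 73.4 CPM in the latter (adjusted p = 7.15e-12), and both were above the 3.21 and 4.32 CPM of neurons. The major fibrillar chains were scarce: Col1a1 had 8 and 2 UMIs in astrocytes and 2 and 0 in neurons, and neither it nor Col1a2 passed the low-count filter.

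Collagen IV chains assemble as fixed trios in basement membranes, and their genes lie in head-to-head pairs. Col4a5 was at 378 CPM in A and 347 CPM in B in tanycyte-like nuclei (adjusted p = 3.14e-30) and at 120 and 56.5 CPM in astrocytes (adjusted p = 3.13e-11). The astrocyte call for Col4a5 did not hold against the mean CPM of the other classes in library B. Its neighbour Col4a6 was at 227 and 122 CPM in tanycyte-like nuclei (24 and 6 UMIs, adjusted p = 3.83e-16). Col4a3 had 66.2 and 102 CPM there (7 and 5 UMIs, adjusted p = 4.00e-07), and all but 1 of those UMIs were in the Fndc3c1 sub-group. Col4a3 had 49 UMIs in all and is named after its values were seen.

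Col4a2 was highest in neurons, at 117 CPM in A and 97.3 CPM in B (adjusted p = 6.48e-27). Col4a1, its partner chain, was at 31.7 and 34.6 CPM in neurons and at 37.8 and 81.6 CPM in tanycyte-like nuclei, the latter on 8 UMIs. The Col4a1 and Col4a2 genes overlap on opposite strands, and no source used here says whether reads were counted by strand. If they were not, reads of these genes cannot be told apart where they overlap. Antisense overlaps were found for 12 members, and same-strand overlaps for 3, Col20a1, Col24a1 and Col26a1.

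Of the fibril-associated collagens, Col16a1 was at 111 CPM in A and 61.1 CPM in B in oligodendrocyte precursors (adjusted p = 1.88e-05) and at 52.2 and 59.6 CPM in neurons (adjusted p = 5.24e-05). Col9a3, a chain of cartilage collagen IX, was at 94.6 and 61.2 CPM in tanycyte-like nuclei (adjusted p = 0.00252, 10 and 3 UMIs). In oligodendrocyte precursors it was at 45.8 and 40.7 CPM, with an adjusted p of 0.0483. The adjusted p ranged from 0.0402 to 0.371 over the other settings, and 5 of them did not keep the call.

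The other well-counted members had most of their UMIs in neurons and did not pass the filter, since the other classes had few of them. Col19a1, a fibril-associated collagen that interneurons use in synapse formation, was at 36.0 and 36.5 CPM in neurons, and neurons held 99.3% of its UMIs in the named classes, where they held 89.5% of all UMIs. Col8a1, a short network-forming chain, was at 24.4 and 20.9 CPM with 99.6% in neurons. Col18a1, whose C-terminal fragment is endostatin, was at 69.3 CPM in A and 27.9 CPM in B, so the libraries differed for it more than for the others. Tanycyte-like nuclei had a mean of 34.6 CPM of Col18a1 on few UMIs, and in B they were above neurons. Col26a1 was at 12.3 and 24.5 CPM and Col24a1, a fibrillar collagen, at 11.3 and 17.0 CPM. On few UMIs, oligodendrocyte precursors had a mean of 16.7 CPM of Col26a1, above neurons in A, and 8.36 CPM of Col24a1.

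The 21 members not described singly had from 16 UMIs (Col1a1) to 119 (Col4a4 and Col6a5), and of these only Col4a3 passed the low-count filter of the class test. Their UMIs were spread thinly: Col9a1, a collagen IX chain, had 9 and 3 in oligodendrocyte precursors, Col5a3, a fibrillar chain, 5 and 6 in astrocytes, and Col15a1, a relative of Col18a1, 1 and 4 in microglia. Col6a5, a beaded-filament chain, had 57 in neurons of each library and 0 in the other named classes.

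With no low-count filter, 13 members were called higher in neurons, where 22.7% of all 23834 genes were. The 9 that joined were Col18a1 (adjusted p = 2.70e-17), Col19a1 (adjusted p = 1.15e-14), Col8a1 (adjusted p = 2.07e-10), Col4a1 (adjusted p = 3.56e-08), Col26a1 (adjusted p = 6.51e-06), Col24a1 (adjusted p = 5.06e-05), Col6a5 (adjusted p = 5.97e-05), Col12a1 (adjusted p = 0.00171) and Col6a1 (adjusted p = 0.00286). In microglia, where 3 UMIs make 78.7 and 92.1 CPM, the neuronal levels of these 9 lie under that limit, so a difference from microglia was not detectable at this depth. The limit was lowest in oligodendrocytes, at 10.7 and 13.9 CPM. Neuronal levels of Col6a5, Col12a1 (mean 8.33 CPM) and Col6a1 (mean 7.95 CPM) lie under the limits of all other named classes. The limit was 28.4 and 61.2 CPM in tanycyte-like nuclei and 19.6 and 30.5 CPM in oligodendrocyte precursors. Neuronal Col26a1 and Col24a1 lie under both in each library, and Col8a1 under the tanycyte-like limit. By mean level, tanycyte-like nuclei were above neurons for Col6a1, at 20.4 CPM on 2 UMIs. They were also above neurons for Col4a1, at 59.7 against 33.2 CPM. These calls are against an average of logs and do not make neurons the highest class.

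The unfiltered fit also added members in other classes, each on few UMIs. In tanycyte-like nuclei 11 were higher (3.25% of all genes), with Col4a1 (adjusted p = 0.0182) and Col4a4 (adjusted p = 0.0294) joining. In astrocytes 6 were higher (6.39%), with Col1a2 (adjusted p = 0.00308), Col1a1 (adjusted p = 0.0130) and Col5a3 (adjusted p = 0.0158) joining. In oligodendrocyte precursors 6 were higher (5.34%), with Col9a1 (adjusted p = 7.23e-04) and Col5a3 (adjusted p = 0.0499) joining. Oligodendrocytes had 1 (6.59%), Col9a1 (adjusted p = 0.0234), and microglia 2 (2.92%), with Col15a1 (adjusted p = 0.0111) joining. Called lower without the filter were 1 member in neurons (2.26% of all genes), 1 in microglia (3.9%), 1 in astrocytes (1.15%), 0 in tanycyte-like nuclei (0.957%), 2 in oligodendrocytes (2.11%) and 1 among their precursors (0.466%).

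Vessel and meningeal cells, the textbook source of brain collagen, were rare in these libraries. Only 20 nuclei had 3 or more genes of an endothelial, mural or fibroblast list, and they held 41 member UMIs, or 2475 CPM. Of these, 9 nuclei of the fibroblast list held 33 UMIs, led by Col12a1 with 6, Col4a5 with 5 and Col25a1 with 5. The wider set of 110 nuclei with at least 2 such genes, 53 of them neurons, held 499 member UMIs. That was 3.65% of member UMIs, in 1.80% of nuclei with 2.11% of all UMIs.

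Neurons were then clustered alone, again without collagen genes, into 28 groups, of which 18 had 20 or more nuclei in each library and were tested. Groups are named here by 2 leading genes. By Slc17a6 and Slc32a1, the transporters of glutamate and of GABA, 9 of the 18 were glutamatergic, 8 GABAergic and 1 neither. All 13 members that passed the filter differed among groups (edgeR F test), where 27.9% of 7439 genes did. Without the filter 21 of 39 differed, where 11.1% of all genes did. In single groups, 47 of 234 member and group pairs were called higher and 6 lower, where 4.64% and 1.83% of all pairs were. A member could pass this filter through the neuron group in which it was high. The filtered counts therefore describe the 13 and not all 39. Against the pooled other groups, 35 of the 47 and 6 of the 6 held in both libraries.

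Col25a1 (F test adjusted p = 2.77e-24) had its highest and its lowest tested levels far apart. In the Prr5l/Vipr2 group, which also carries Prok2, a gene known from the circadian clock nucleus, it was at 1539 CPM in A and 1503 CPM in B. The other groups pooled had 316 and 306 CPM (adjusted p = 4.76e-23), and 61.1% and 78.6% of that group's nuclei had a UMI. The Ankfn1/Tshz3 group had 796 and 626 CPM (adjusted p = 5.89e-14), and the glutamatergic Myo5b/Rgs6 group 630 and 602 CPM (adjusted p = 2.65e-09). At the other end, the glutamatergic Tanc1/Myo5b group had 3.53 and 13.0 CPM, that is 1 and 2 UMIs (adjusted p = 6.90e-12). The Nfib/Sox6 group, which carries Sim1, was lower at 136 and 49.9 CPM (adjusted p = 0.0107). The Calcrl/Sst group, too small in library B to be tested, stood at 1275 and 1256 CPM. Group levels in the 2 libraries had a Pearson correlation of 0.91 over 18 groups, as a description.

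**Figure D3:**
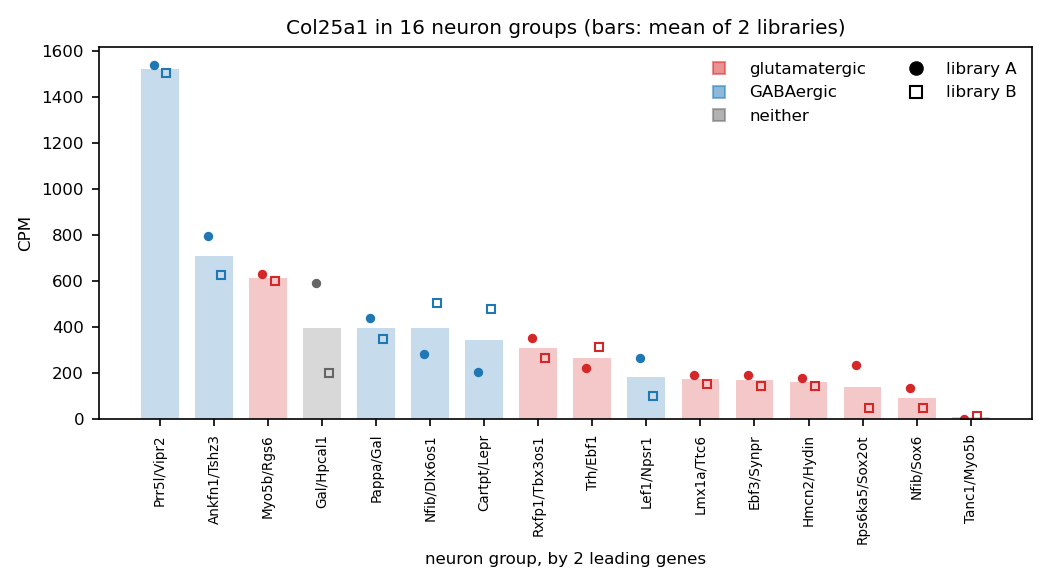
Col25a1 level in CPM in 16 of the 18 tested neuron groups, with a point per library, bars for the mean, colour for transmitter and groups named by 2 leading genes. The Prr5l/Vipr2 group is highest in both libraries at 1539 and 1503 CPM, and the Tanc1/Myo5b group is lowest at 3.53 and 13.0 CPM.

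Other members had a different leading group. Col19a1 (F test adjusted p = 3.12e-21) was at 328 CPM in A and 325 CPM in B in the Tanc1/Myo5b group, the group lowest in Col25a1. The other groups had 23.7 and 24.3 CPM, a ratio of 13.8 and 13.3 (adjusted p = 2.34e-26). The untested Npy/Sst group had 176 and 150 CPM of Col19a1.

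Col24a1 (F test adjusted p = 6.98e-12) was concentrated in the Rxfp1/Tbx3os1 group, which carries the estrogen receptor gene Esr1. It was at 134 CPM in A and 201 CPM in B there against 6.80 and 13.3 CPM elsewhere, a ratio of 19.7 and 15.1 (adjusted p = 1.25e-15). The Lmx1a/Ttc6 group was also called higher in Col24a1, at 27.3 and 34.2 CPM (adjusted p = 8.99e-06).

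Col27a1, low in neurons as a class, was concentrated in the Nfib/Sox6 group. It stood at 113 CPM in A and 199.7 CPM in B against 4.60 and 3.54 CPM in the other groups (adjusted p = 1.51e-14), a ratio of 24.6 and 56.3. The same group held 8 and 6 of the 12 and 8 neuronal UMIs of Col13a1, at 36.2 and 59.9 CPM, a detail chosen after its values were seen.

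Col18a1 (F test adjusted p = 3.05e-25) had a different highest tested group in each library. In A it was the same Nfib/Sox6 group, at 529 CPM in A and 110 CPM in B, against 46.1 and 24.5 CPM elsewhere (adjusted p = 6.82e-25). In B it was the Cartpt/Lepr group, with 379 CPM in A and 134 CPM in B (adjusted p = 2.33e-20). The Lmx1a/Ttc6 group had 112 and 74.6 CPM (adjusted p = 8.22e-13). The untested Hcrt/Rfx4 group had 378 and 195 CPM. In each of these 4 groups the level in A was above that in B.

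**Figure D4:**
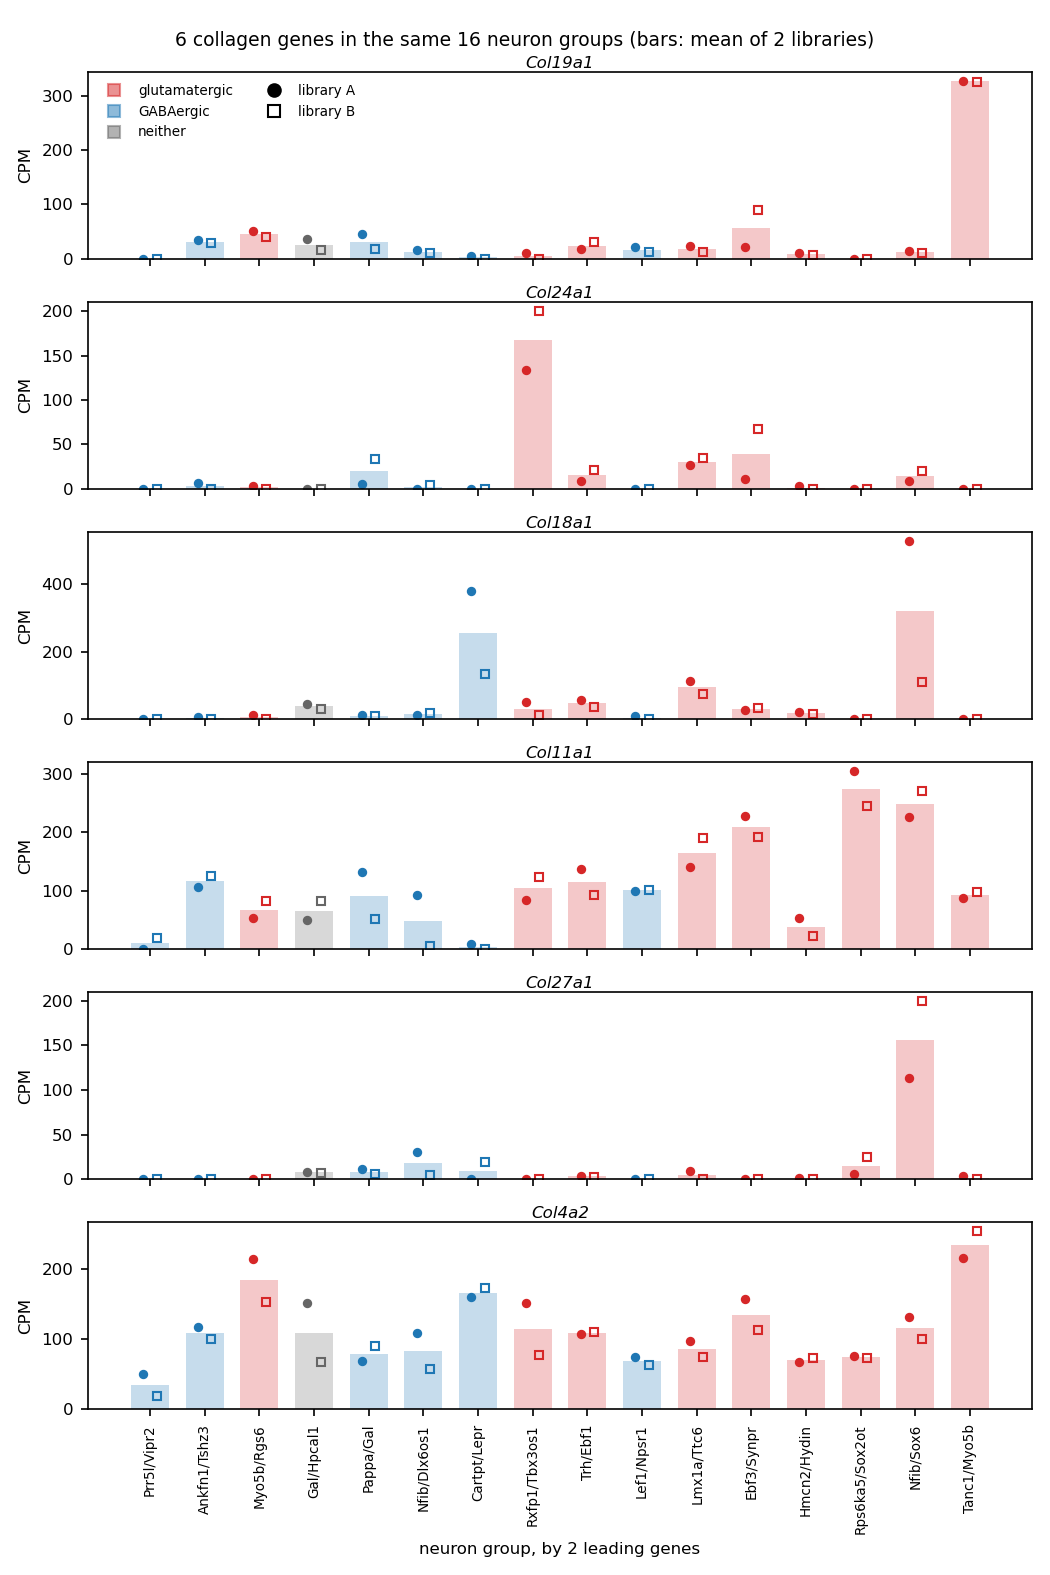
Levels of 6 collagen genes in CPM in 16 of the 18 tested neuron groups, with a point per library and bars for the mean. The highest group differs between genes, such as Tanc1/Myo5b for Col19a1 at 328 and 325 CPM and Rxfp1/Tbx3os1 for Col24a1 at 134 and 201 CPM.

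Col11a1 (F test adjusted p = 1.39e-11) was called higher in 4 glutamatergic groups. The Rps6ka5/Sox2ot group had 304 and 244 CPM (adjusted p = 8.19e-06), the Nfib/Sox6 group 226 and 270 CPM (adjusted p = 3.20e-06), the Ebf3/Synpr group 227 and 191 CPM (adjusted p = 1.75e-04) and the Lmx1a/Ttc6 group 140 and 190 CPM (adjusted p = 6.95e-05). Col11a1 was lower in 2 GABAergic groups, Cartpt/Lepr with 8.61 and 0 CPM (adjusted p = 3.86e-04) and Prr5l/Vipr2 with 0 and 19.4 CPM (adjusted p = 0.00167).

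Col4a1 and Col4a2 were both called higher in the same 2 groups. In the Tanc1/Myo5b group Col4a2 was at 215 CPM in A and 253 CPM in B (adjusted p = 6.84e-08) and Col4a1 at 56.4 and 104 CPM (adjusted p = 0.00114). In the Myo5b/Rgs6 group Col4a2 was at 215 and 153 CPM (adjusted p = 1.07e-04) and Col4a1 at 68.0 and 81.6 CPM (adjusted p = 0.00400). Col4a2 was lower in the Prr5l/Vipr2 group, at 50.1 and 19.4 CPM (adjusted p = 0.00544). Over the 18 groups Col4a1 and Col4a2 levels had a Pearson correlation of 0.74 in A and 0.69 in B and a Spearman correlation of 0.47 and 0.46. For the other neighbouring pairs of collagen IV the Pearson correlations were 0.44 and 0.25 for Col4a3 and Col4a4 and of -0.28 and 0.12 for Col4a5 and Col4a6, the latter on few UMIs. Col9a2 and Col9a3 had -0.14 and -0.44. The genes of each pair were read from the same nuclei, and the overlap noted above applies to Col4a1 and Col4a2.

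Other members had calls on fewer UMIs. Col6a1, a beaded-filament chain, was higher in the Cartpt/Lepr group at 68.9 and 38.3 CPM (adjusted p = 4.27e-07). Col8a1 was higher in the Cartpt/Lepr group at 81.8 and 76.6 CPM (adjusted p = 2.06e-04), and Col16a1 in the Myo5b/Rgs6 group at 85.9 and 133 CPM (adjusted p = 0.00113). Col5a2 was higher in the Nfib/Sox6 group at 22.6 and 49.9 CPM (adjusted p = 3.43e-04). The Col5a2 call in the Ankfn1/Tshz3 group (17.4 and 0 CPM) rests on library A. Col23a1 was called higher in 5 groups, among them Rxfp1/Tbx3os1 at 31.7 and 33.5 CPM (adjusted p = 0.00379). Col26a1 had 209 UMIs in all, and its group levels in the 2 libraries had a Pearson correlation of 0.0097 over 18 groups.

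Between transmitter types, 2 members were higher in glutamatergic groups and 1 in GABAergic groups, where 4.69% and 4.46% of all genes were. Col25a1 was at 226 and 225 CPM in glutamatergic and 496 and 478 CPM in GABAergic nuclei (log2 difference, glutamatergic minus GABAergic, -1.25, SE 0.15, adjusted p = 2.76e-10). Col11a1 was higher in glutamatergic groups, at 123 and 117 CPM against 93.6 and 89.4 CPM (log2 difference 1.39, SE 0.20, adjusted p = 1.79e-07). That difference averages groups equally, and it is larger than the ratio of the pooled levels. Col4a2 had 120 and 110 CPM against 106 and 85.3 CPM (log2 difference 0.48, SE 0.12, adjusted p = 0.00350). For 7 of the 13 members a group at 0 left the contrast without information.

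With nuclei summed over all groups of 1 transmitter, a setting added after the data were seen, 24 members were tested. Then 7 were higher in glutamatergic neurons (4.42% of genes), led by Col24a1 with a log2 difference of 2.01 (SE 0.30, adjusted p = 1.77e-09), and also Col18a1, Col19a1, Col11a1, Col16a1, Col11a2 and Col6a5. In GABAergic neurons 2 were higher (2.76% of genes), Col25a1 and Col6a1. Col4a2 did not pass there (adjusted p = 0.0699). That fit had 1 residual degree of freedom, and single groups could carry a sum. Among glutamatergic groups the median and highest levels were 12.4 and 150 CPM for Col24a1, 29.2 and 398 CPM for Col18a1, and 20.1 and 327 CPM for Col19a1. For Col16a1 they were closer, at 51.8 and 98.0 CPM. Among GABAergic groups they were 4.08 and 63.3 CPM for Col6a1.

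Genes that make, bind or cut collagen were taken from 4 lists. Their counts are to be read against the shares of all genes called higher, which were 34.9% in neurons, 13.9% in tanycyte-like nuclei, 21.3% in astrocytes, 21.2% in oligodendrocytes, 19.9% in oligodendrocyte precursors and 12.5% in microglia. The shares called lower were 14%, 4.62%, 6.21%, 10.7%, 3.22% and 16.9% in the same order. Of 30 modifying and processing genes 12 were tested, with 3 higher and 0 lower in tanycyte-like nuclei, 3 and 3 in neurons, 4 and 1 in astrocytes, 3 and 2 in oligodendrocytes, 3 and 0 in oligodendrocyte precursors and 2 and 1 in microglia. P3h2, a prolyl hydroxylase of collagen IV, was at 1475 CPM in A and 633 CPM in B in tanycyte-like nuclei (adjusted p = 4.92e-85). Tll1, a protease that trims procollagen, was at 539 and 429 CPM there (adjusted p = 3.88e-50). P3h2 was also at 892 and 491 CPM in microglia.

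Of 15 collagen receptors 8 were tested, with 3 higher and 1 lower in tanycyte-like nuclei, 3 and 0 in neurons, 3 and 1 in astrocytes, 2 and 2 in oligodendrocytes, 1 and 1 in oligodendrocyte precursors and 2 and 4 in microglia. Ptprd, a receptor phosphatase that collagen XXV can bind, was at 3765 and 3437 CPM in neurons and at 4889 and 4980 CPM in oligodendrocytes. Ddr1, a collagen-activated kinase, was at 222 and 302 CPM in oligodendrocytes, and Lair1, an inhibitory collagen receptor of immune cells, at 839 and 890 CPM in microglia.

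Of 15 basement membrane partners only 3 were tested, with 2 higher in astrocytes, 2 in oligodendrocytes, 1 in neurons, 1 in oligodendrocyte precursors, 0 in tanycyte-like nuclei, and 3 lower in microglia. Lama2, a laminin chain, was at 1156 and 813 CPM in astrocytes (adjusted p = 8.54e-150). Of 14 breakdown genes 4 were tested, with 3 higher in oligodendrocyte precursors, 2 in neurons, 2 in tanycyte-like nuclei and 2 in astrocytes, and with 2 lower in astrocytes, 2 in microglia and 1 in oligodendrocytes. Mmp16, a membrane-bound metalloproteinase, was at 1624 and 1425 CPM in oligodendrocyte precursors (adjusted p = 1.14e-125), and Timp3, an inhibitor held in the matrix, at 317 and 474 CPM in astrocytes.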

How the data were processed

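Single-nucleus matrices of whole UMI counts per gene and nucleus were used as deposited by the authors. Cell Ranger 5.0.1 and the build GRCh38 stand in the submitters' processing notes, although the listed genes are mouse genes. The members and gene lists were chosen with earlier results of these data known. Nuclei with 300 or more genes and at most 5% mitochondrial UMIs were kept, a filter that removed none. Doublets were marked with Scrublet and left out. Clustering without collagen genes used scanpy 1.11.5 (10000 per nucleus, 3000 variable genes, 40 components, 20 neighbours, resolution 1). The 2 tested neuron groups that are not plotted are not reported singly here. Vascular or meningeal nuclei (3 or more genes of 1 list) were set apart.

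Counts were summed per class or neuron group and library and tested with edgeR 4.0.16 (quasi-likelihood, TMM, library as a term, Benjamini-Hochberg adjustment over all genes). The scripts were tested on simulated data. CPM is the summed count per 1000000 UMIs of that class or group. Members were described singly with 200 or more UMIs, or with 50 or more if called, and at most 4 genes per companion list and class. Alternatives were DESeq2 1.42.0, no filter, no library term, the transplanted-labelled matrices, resolution 0.5, nuclei with 1000 or more UMIs, and leaving out each library.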

Additional observations from a re-analysis of the deposited data

How the results depend on the processing

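No paired analysis was possible because the control and transplanted matrices of each pair hold the same nuclei and their replicate numbers follow accession order. The library served as the block, and with no replicate block the lower calls in oligodendrocyte precursors went from 1 to 0, with 37 higher and 4 lower in single neuron groups and 11 of 13 members varying. In the transplanted-labelled matrices 2 members were lower in neurons (1 in the control-labelled) and 1 in microglia (2). Without the low-count filter 13 were higher in neurons (4), 1 in oligodendrocytes (0) and 2 in microglia (1), 1 was lower in microglia (2), 21 varied between groups (13), and 71 pairs were higher (47). With nuclei of 1000 or more UMIs, 2 were higher and 0 lower in neurons, 2 higher and 2 lower in oligodendrocyte precursors, and 19 class calls remained in number (30), with no microglia class. Without the astrocyte nucleus high in Col25a1, 2 were higher and 2 lower in astrocytes (4 and 1). DESeq2 gave 4 lower in neurons, 5 in oligodendrocytes, 0 in oligodendrocyte precursors and 0 in microglia. At resolution 0.5, 4 members were higher in glutamatergic groups (2), and with counts summed per transmitter 7 were, with 2 higher in GABAergic. For most of these settings the share of all genes called was not counted. Changes in member counts therefore cannot be told from changes over all genes. The cause of these changes was not tested. Col27a1 in neurons reversed with nuclei of 1000 or more UMIs, to a log2 difference of 0.82 (adjusted p = 0.823). Without control replicate 1 or 2 in turn, Col5a2 in the Ankfn1/Tshz3 group ranged from -0.73 to 3.06 and Col8a1 in the Hmcn2/Hydin group from -0.22 to 1.93 (log2 differences, with no test since 1 library was left). Of 331 alternative values for 29 class results 308 kept direction and call, 22 lost the call and 1 reversed; of 233 for 47 neuron-group results 218 kept both and 15 lost the call. Leaving out a library is not in those totals: of the 29 class values 15 moved by more than 1 SD without control replicate 1 and 15 without replicate 2, none changing sign, and of the 47 neuron-group values 24 moved and 2 reversed without replicate 1 and 21 moved without replicate 2.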
